A study of Sus scrofa and Rattus norvegicus with 8 samples.

Results

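Transcripts of the caveola coat and neck were examined in white fat from the upper layer of backfat of pigs. The set was fixed by gene name as 8 genes, namely the caveolins CAV1, CAV2 and CAV3, the cavins CAVIN1, CAVIN2 and CAVIN3, and the neck proteins EHD2 and PACSIN2. Of these, 7 had a gene ID among the 25880 IDs of the pig table, and CAV3 had none in the name table and so has no value here. The series holds 8 RNA-seq libraries of adipose tissue, 6 from pig and 2 from rat. The 6 pigs were female, 2 years of age and of the Bama breed, and no treatment or genotype is given for them. The rat libraries, pools of inguinal fat from 32-week-old female SD rats, belong to a table of 32883 IDs that carries no gene names, and they were not analysed here. All 6 pigs thus form 1 group, and the questions are how abundant each component was, in which order, and how much it varied between animals.

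Caveolae are flask-shaped pits of the plasma membrane that are especially dense in adipocytes and are also common in endothelium and muscle. Caveolins insert into the inner leaflet and oligomerize, cavins assemble on them as a peripheral coat, and proteins at the neck hold the pit at the surface. In fat these pits buffer membrane tension and hold signalling receptors and lipids, and inherited loss of CAV1 or CAVIN1 in humans causes lipodystrophy.

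Expression was given in TPM (a transcript abundance corrected for length and scaled to the same total in every library), which allows comparison of levels between genes within a library. Libraries 4 and 5 stood apart from the others, since named nuclear genes held 3.34% and 4.73% of their TPM against 24.1 to 26.3% in the other 4. Every value is therefore also given after each library was rescaled to the same total over its 14844 named nuclear genes, here called rescaled TPM, and results that rest on replicates 4 and 5 are given without them too. Markers of the labelled tissue were high. The 10 adipocyte markers with a name, of 12 listed, had a median of 984 rescaled TPM, and FABP4, the fatty acid binding protein of adipocytes, had 18679 ± 7299 rescaled TPM (SD, n = 6). Skeletal muscle markers, of which 6 of 13 had a name, summed to 5.35 to 32.0 rescaled TPM per library. The files show no read counts, so no counting error can be given, and in bulk tissue fewer cells of a type and less RNA per cell cannot be told apart.

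CAV1 and CAV2 are neighbours, and the windows before their annotated starts are shown because this pair kept the steadiest ratio to each other of the set, as given with the ratios to CAV1. CAV1 (ENSSSCG00000016634) spans bases 29648120 to 29682451 of chromosome 18 in the build Sscrofa11.1, and CAV2 (ENSSSCG00000016635) spans bases 29699012 to 29707277. Both are on the minus strand with 3 exons in the longest RefSeq transcript, and they are 16560 bases apart with 0 RefSeq genes between them. The 250 bases before the start of each gene were read on the minus strand from chr18:29682452-29682701 for CAV1 and from chr18:29707278-29707527 for CAV2. Capitals mark 3 of the motifs that were searched on either strand. These were the GC box, spelled GGGCGG, the motif with the sequence TATAAA that is known as the TATA box, and the motif CCAAT. The letters of these motifs do not overlap in the windows shown.
CAV1: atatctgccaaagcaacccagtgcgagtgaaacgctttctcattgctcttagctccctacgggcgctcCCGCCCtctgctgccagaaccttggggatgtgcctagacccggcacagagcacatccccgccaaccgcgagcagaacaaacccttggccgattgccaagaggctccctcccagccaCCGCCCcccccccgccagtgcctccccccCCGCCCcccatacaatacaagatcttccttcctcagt
CAV2: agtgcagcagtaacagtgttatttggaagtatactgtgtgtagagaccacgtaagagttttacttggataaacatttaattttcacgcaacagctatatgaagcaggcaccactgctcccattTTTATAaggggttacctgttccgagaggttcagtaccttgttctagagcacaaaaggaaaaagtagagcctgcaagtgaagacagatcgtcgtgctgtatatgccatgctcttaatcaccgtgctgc
The CAV1 window held 3 GC box matches, which 45.9% of 19527 such windows of protein-coding genes hold at least once, and 13 CpG pairs against a median of 12. In the CAV2 window there was 1 TATA box match, on the opposite strand, as in 9.76% of all windows, and 6 CpG pairs. Neither window held a CCAAT box, which 31.9% of windows hold. An E-box (CANNTG, not in capitals) was matched 0 times in the CAV1 window and 1 time in the CAV2 window, and 61.9% of windows hold it. The letters describe the 2 windows only, and where transcription started in these pigs was not measured.

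All 7 components were abundant in backfat. Each was above 0.1 TPM as deposited, the detection threshold of the study, in all 6 pigs, as were 67.2% of the named nuclear genes, and each was also above 1 TPM in all 6, as were 30.9%. Mean levels of the 7 ranged from 121 to 1228 rescaled TPM with a median of 246, where the median over all named nuclear genes was 16.7. A mean of at least 100 rescaled TPM was reached by 7 of 7 components and by 13.1% of named nuclear genes. Their percentiles among these genes ran from 89.6 for PACSIN2 to 99.5 for CAV1, with a median of 95.9. Summed, the 7 genes made up 0.326% ± 0.0480 (SD, n = 6) of the named nuclear transcripts, from 0.283% in replicate 6 to 0.409% in replicate 4.

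CAV1, the caveolin that builds the coat in non-muscle cells, was the most abundant component and ranked 71 among the 14844 named nuclear genes. As deposited it had 248, 285 and 264 TPM in replicates 1 to 3, 54.0 TPM in replicate 4, 75.0 TPM in replicate 5 and 259 TPM in replicate 6, a mean of 198 ± 104 TPM (SD, n = 6). After rescaling the values were 993, 1184, 1009, 1616, 1584 and 983 in replicates 1 to 6, a mean of 1228 ± 297 rescaled TPM (SD, n = 6). Replicates 4 and 5 were thus the lowest libraries as deposited and the highest after rescaling. Without these 2 libraries CAV1 had the smallest spread of the 7, with a CV (SD divided by mean) of 0.0912 (n = 4).

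CAV2, which needs CAV1 to reach the cell surface, was far lower. Its deposited values were 51.6, 60.2, 57.5, 8.14, 17.7 and 48.4 TPM in replicates 1 to 6, with a mean of 40.6 ± 22.0 TPM (SD, n = 6). On the rescaled scale it had 206, 249.8, 219.7, 244, 374 and 184, with a mean of 246 ± 67.2 rescaled TPM (SD, n = 6). Here replicate 5 was the highest and replicate 4 lay among the other libraries.

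CAVIN1 (ENSSSCG00000035446; chromosome 12, 20372476 to 20390250, plus strand, 2 exons), the cavin without which caveolae do not form, came second to CAV1 on average. It had 186, 187, 267, 52.0, 45.1 and 243 TPM as deposited in replicates 1 to 6, a mean of 163 ± 94.3 TPM (SD, n = 6). Rescaled values were 744, 775, 1019, 1558, 952 and 923, a mean of 995 ± 295 rescaled TPM (SD, n = 6). Replicate 4 was the highest by a wide margin, and replicate 5 lay inside the range of the other 4, from 744 to 1019.

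CAVIN2 (ENSSSCG00000026618; chromosome 15, 96476675 to 96490231, minus strand, 2 exons), formerly SDPR, a cavin that shapes the membrane and binds phosphatidylserine, was lower than CAVIN1 in every library. Its deposited values were 47.6, 48.3, 39.3, 4.62, 7.65 and 33.6 TPM, and its rescaled values were 190.5, 200.3, 150.0, 138, 162 and 128 in replicates 1 to 6. The mean was 161 ± 28.8 rescaled TPM (SD, n = 6), and the CV of 0.179 over all 6 libraries was the smallest of the 7. That rank rests on replicates 4 and 5. Without them the CV of CAVIN2 was 0.204 (n = 4), the largest after that of CAVIN3, 0.229. Replicates 4 and 5 lay within the range of the others.

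CAVIN3 (ENSSSCG00000014633; chromosome 9, 3378144 to 3379851, plus strand, 2 exons), a cavin that binds protein kinase C delta, had 58.0, 33.2, 54.0, 11.14, 14.3 and 42.9 TPM as deposited. After rescaling it had 232, 138, 206, 334, 303 and 163 in replicates 1 to 6, a mean of 229 ± 77.1 rescaled TPM (SD, n = 6). Both replicates 4 and 5 exceeded all others, and replicate 2 was the lowest.

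EHD2 (ENSSSCG00000023371; chromosome 6, 53423489 to 53442007, plus strand, 6 exons), the ATPase that rings the neck and keeps caveolae at the surface, varied most over all 6 libraries. It had 104, 80.2, 111, 3.31, 4.62 and 79.9 TPM as deposited, a mean of 63.8 ± 48.0 TPM (SD, n = 6). Rescaled values were 415, 333, 425, 99.2, 97.5 and 303, a mean of 279 ± 147 rescaled TPM (SD, n = 6) and a CV of 0.528. Replicates 4 and 5 lay well below the other 4 libraries on both scales, at 0.266 and 0.261 times the median of the other 4 after rescaling. The CV without them was 0.163 (n = 4), below those of CAVIN3 (0.229) and CAVIN2 (0.204), so EHD2 then no longer varied most.

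PACSIN2 (ENSSSCG00000000036; chromosome 5, 5853377 to 5985174, plus strand, 11 exons), an F-BAR protein that bends the neck membrane, was the lowest component. It had 32.5, 29.2, 38.6, 3.31, 3.90 and 39.1 TPM as deposited, and 130.1, 121, 148, 99.1, 82.3 and 148 after rescaling, a mean of 121 ± 26.5 rescaled TPM (SD, n = 6). Replicates 4 and 5 were again below the rest, though by less than for EHD2, at 0.713 and 0.593 times the median of the other 4.

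**Figure D1:**
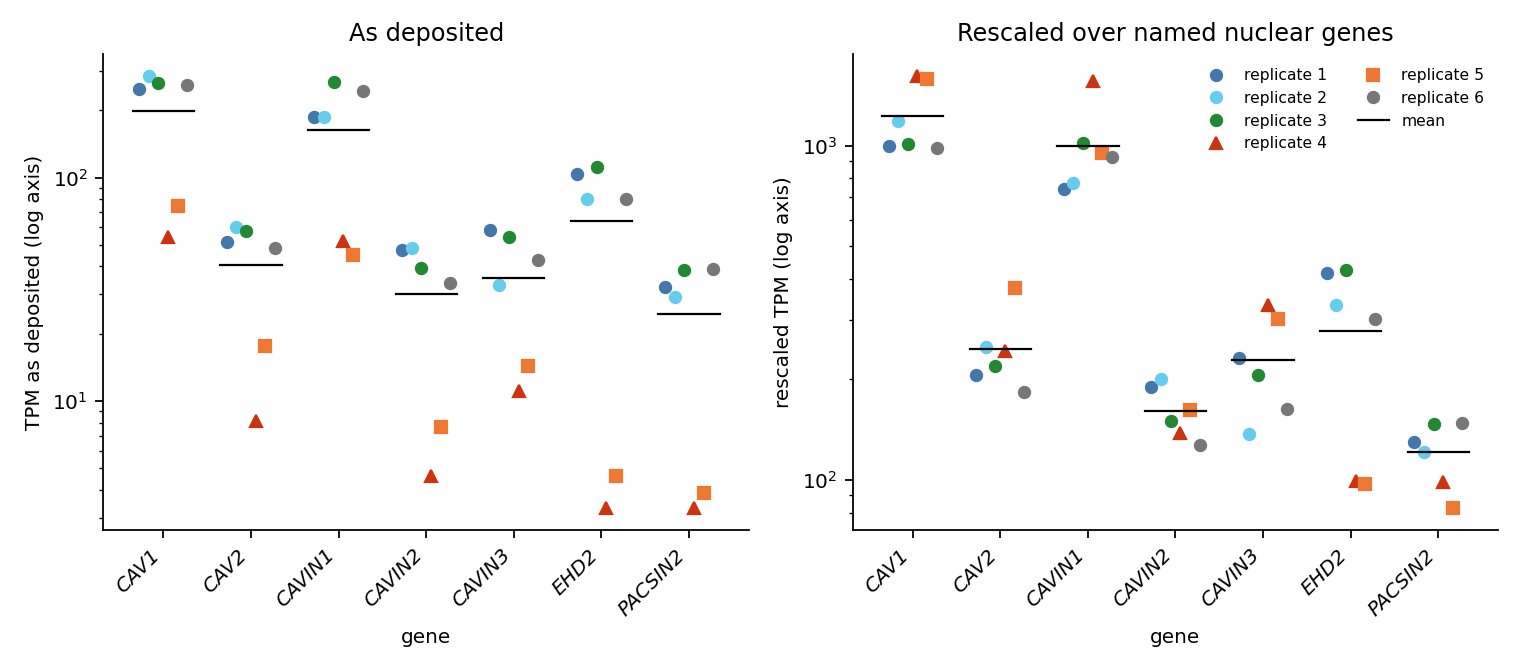
Level of each of the 7 genes (x axis) in the 6 pig libraries, as deposited TPM on the left and rescaled TPM on the right, both on log axes, with points for single libraries and a line for the mean. Replicates 4 (triangle) and 5 (square) are lowest for all 7 genes as deposited, while after rescaling they are highest for CAV1 and CAVIN3 and lowest for EHD2 and PACSIN2.

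By mean rescaled TPM the order was CAV1, CAVIN1, EHD2, CAV2, CAVIN3, CAVIN2 and PACSIN2. The largest step was that from CAVIN1 to EHD2, with a mean log2 ratio of 2.03 ± 1.28 (SD, n = 6), and CAVIN1 was higher in 6 of 6 libraries. Its size rests in part on replicates 4 and 5, where EHD2 was at 0.0637 and 0.102 times CAVIN1, against 0.329 to 0.558 in the others. Over all 6 libraries the other 5 steps did not exceed the SD of their log2 ratio, and this was not computed without replicates 4 and 5. CAV1 was higher than CAVIN1 in 5 of 6 libraries, at 0.32 ± 0.32 on the log2 scale, and replicate 3 was the exception. EHD2 was above CAV2 in replicates 1, 2, 3 and 6 and below it in replicates 4 and 5, so its place in the order rests on the libraries included. CAV2 was above CAVIN3 in 4 of 6 libraries, CAVIN3 above CAVIN2 in 5 of 6 and CAVIN2 above PACSIN2 in 5 of 6.

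The make-up of the set was then expressed as shares of its summed TPM, which do not change when a library is multiplied by a factor. CAV1 held 37.4% ± 4.68 and CAVIN1 30.2% ± 4.98 (SD, n = 6), so that these 2 coat genes made up most of the caveola transcripts in every library. The share of CAV1 ran from 31.8% in replicate 3 to 44.6% in replicate 5. EHD2 held 10.7 to 14.2% in replicates 1, 2, 3 and 6, but 2.43% in replicate 4 and 2.74% in replicate 5. The shares of CAV2, CAVIN3, CAVIN2 and PACSIN2 averaged 7.55%, 6.92%, 5.06% and 3.86%.

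**Figure D2:**
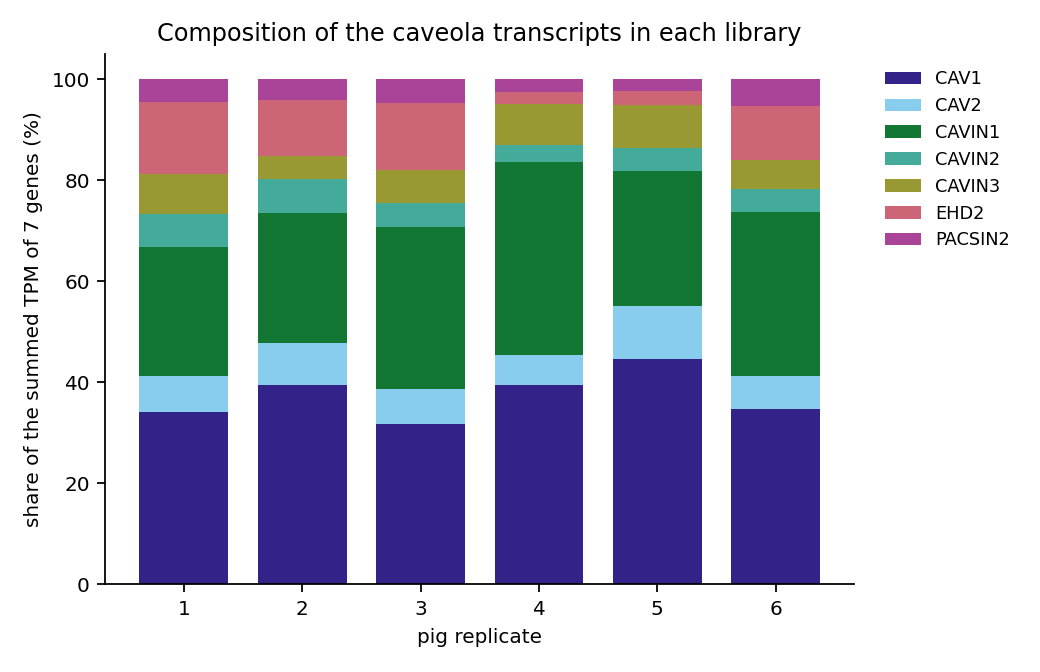
Stacked bars of the share of the summed TPM of the 7 caveola genes (y axis, %) in each pig replicate (x axis), 1 colour per gene. CAV1 and CAVIN1 hold most of each bar, and the EHD2 band shrinks to 2.43% and 2.74% in replicates 4 and 5.

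Ratios to CAV1 within a library are likewise free of any such factor. CAVIN1 was present at 0.749, 0.655, 1.01, 0.964, 0.601 and 0.939 times CAV1 in replicates 1 to 6, a mean of 0.820 ± 0.174 (SD, n = 6). Replicates 4 and 5 had one of the higher and the lowest of these values, so the ratio of the main coat genes did not set these libraries apart, and it was 0.838 ± 0.165 (SD, n = 4) without them.

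The ratio of CAV2 to CAV1 was the steadiest. It was 0.208, 0.211, 0.218, 0.151, 0.236 and 0.187 in replicates 1 to 6, a mean of 0.202 ± 0.0296 (SD, n = 6) and a CV of 0.147. Replicate 4 was the lowest and replicate 5 the highest, on either side of the other 4. A CV of the ratio to CAV1 as small as this was seen for 3.94% of the named nuclear genes with a mean of at least 10 rescaled TPM. Without replicates 4 and 5 the CV was 0.0641 (n = 4), and 3.84% of genes had one no larger. CAVIN3, at 0.186 ± 0.0408 (SD, n = 6) of CAV1, had replicates 4 and 5 inside the range of the others.

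For the neck genes the ratio differed by library. EHD2 was at 0.418, 0.281, 0.421 and 0.309 times CAV1 in replicates 1, 2, 3 and 6, and at 0.0614 and 0.0616 in replicates 4 and 5. PACSIN2 was at 0.131, 0.102, 0.146 and 0.151 in replicates 1, 2, 3 and 6, and at 0.0613 and 0.0520 in replicates 4 and 5. CAVIN2 followed the same direction, at 0.130 to 0.192 against 0.0856 and 0.102. These 3 of 6 components had both libraries below the other 4, but so did 77.1% of the named nuclear genes with a mean of at least 10 rescaled TPM, so the direction alone does not mark the neck genes. None of the 6 had both libraries above the rest, as 1.92% of genes did.

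**Figure D3:**
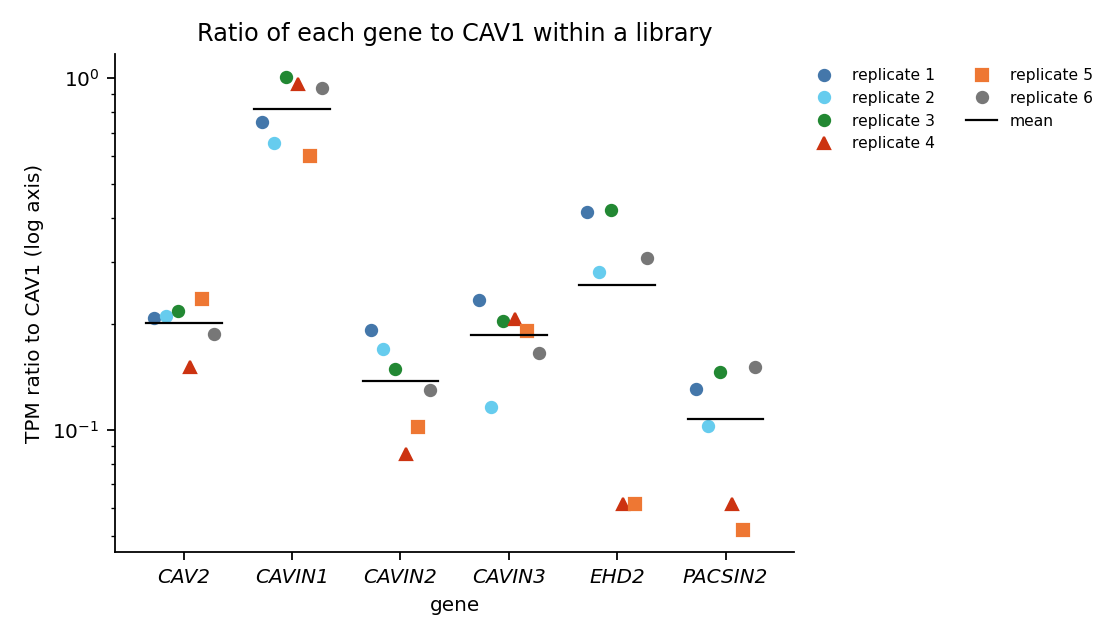
TPM of 6 caveola genes (x axis) divided by the TPM of CAV1 in the same library (y axis, log axis), with points for the 6 pigs and a line for the mean. CAV2 stays between 0.151 and 0.236, whereas EHD2 lies at 0.281 to 0.421 in 4 libraries and at 0.0614 and 0.0616 in replicates 4 and 5.

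The position of replicates 4 and 5 depended on the scale for most components. As deposited, 7 of 7 components had both libraries below the other 4, as did 99.1% of named nuclear genes with a mean of at least 10 rescaled TPM. After rescaling, EHD2 and PACSIN2 were below in both (48.6% of genes) and CAV1 and CAVIN3 were above in both (12.3% of genes). After median-centring, EHD2 was below (22.7% of genes) and CAV1, CAV2, CAVIN1, CAVIN2 and CAVIN3 were above (37.2% of genes). After quantile normalization, EHD2 was below (27.0% of genes) and CAV1, CAV2 and CAVIN3 were above (29.3% of genes). With mitochondrially encoded and ribosomal protein genes removed before scaling over all remaining IDs, named or not, 7 of 7 components were below (99.3% of genes). Unnamed IDs, kept in that total, held 96.5% and 95.0% of the deposited TPM in replicates 4 and 5, against 54.7 to 62.9% in the others. That scale therefore lay close to the deposited one, with a mean CAV1 of 236 against 198 TPM. EHD2 was thus below in these 2 libraries under all 5 scalings tried, as were 22.1% of 8818 genes, while the place of the other 6 relative to the remaining libraries changed with the scale.

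Other measures moved with these libraries, and their part in the levels of EHD2, PACSIN2, CAV1 and CAVIN3 was not tested. Mitochondrially encoded transcripts held 0.209% and 0.298% of the TPM in replicates 4 and 5 against 10.8 to 21.2% in the others, and 10126 and 10556 named nuclear genes were detected against 12736 to 12884. After rescaling, the 10 endothelial markers with a name, of 12, summed to 847 and 1017 rescaled TPM in replicates 4 and 5 against 1404 to 1757 in the others. The 11 smooth muscle and pericyte markers summed to 685 and 782 against 975 to 1377. Macrophage markers (9 of 10) summed to 524 and 344 against 651 to 840, and lymphoid markers (9 of 9) to 24.9 and 25.9 against 59.8 to 89.4. The adipocyte markers summed to 29199 and 38398 in replicates 4 and 5, against 20872 to 36632, and most of each sum was FABP4. Without FABP4 the other 9 adipocyte markers summed to 9199 and 9472, against 10045 to 12622. Of the 10, 3 were below the other 4 libraries in both replicates and 2 above. Among named nuclear genes with a mean of at least 10 rescaled TPM, 48.6% were below and 12.3% above. Fibroblast and progenitor markers (9 of 10) summed to 11632 and 20374 against 16526 to 32429. Both replicates were below the rest for 8 of 10 endothelial, 7 of 11 smooth muscle and pericyte and 5 of 9 fibroblast and progenitor markers. The same held for 6 of 9 macrophage and 4 of 9 lymphoid markers, lists that include genes under 10 rescaled TPM. In each of these lists 0 were above. Beside the 48.6% of all genes, nothing particular to a cell type is read from the sums. No named marker of these lists was at 0 in all 6 libraries. PECAM1 and CDH5, adhesion molecules of endothelium, had 714 ± 169 and 140.0 ± 64.0 rescaled TPM (SD, n = 6). The longest RefSeq transcript of EHD2 has a GC content of 63.5% and that of PACSIN2 56.4%, while those of CAV1 and CAV2 have 41.3% and 39.9%. That of CAVIN1, highest in replicate 4, has 53.7%. CAVIN2, with replicates 4 and 5 inside the range of the others after rescaling, has 43.0%. CAVIN3, at 71.6% the richest in GC and at 1149 bases the shortest, was higher in replicates 4 and 5, and the median GC content was 49.3% over 8210 genes at this level.

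Spread between pigs was close to that of other genes at this level. After rescaling, the median CV of the 7 components was 0.273, and it was 0.282 over the 8866 named nuclear genes with a mean of at least 10 rescaled TPM, a filter that 7 of 7 components passed. EHD2, CAVIN3 and CAVIN1 were above that median. Without replicates 4 and 5 the medians were 0.149 and 0.161, and CAVIN3, CAVIN2 and EHD2 were above.

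Likeness of pattern across pigs was described by Pearson's r of log2(rescaled TPM + 1). Because replicates 4 and 5 form a separate cluster and neither cluster holds 6 libraries, r is given as a description and no relation between genes was tested. Over 21 pairs of components the median r was -0.10 (n = 6), with 9 pairs above 0, against 0.03 and 11 pairs without replicates 4 and 5 (n = 4). The sign was the same in both for 11 of 21 pairs. The median also turned with the scale, to 0.97 as deposited, 0.47 after median-centring and 0.02 after quantile normalization. It was likewise 0.97 without mitochondrially encoded and ribosomal protein genes, a scale whose total kept the unnamed IDs. The r of single pairs thus hold for the rescaled values only. CAV1 and CAV2 had r = 0.785 with all libraries and 0.879 without replicates 4 and 5. CAV1 and PACSIN2 had r = -0.939 and -0.779, while CAV1 and EHD2 went from -0.954 to -0.276 and EHD2 and PACSIN2 from 0.898 to 0.0281. The pair of coat genes CAV1 and CAVIN1 turned from 0.618 to -0.409.

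Among 8859 other named nuclear genes, those most like CAV1 over the 6 pigs included SPCS3 (r = 0.998), DUSP4 (0.994), S100A1 (0.991) and AAGAB (0.986), and the median r over these genes was -0.64, or 0.04 without replicates 4 and 5. Most like CAVIN1 were WDR37 (r = 0.999), OTUD6B (0.979), RNF139 (0.976), NEK7 (0.968) and TM9SF3 (0.958), with a median of -0.46, or -0.18 without replicates 4 and 5. Without replicates 4 and 5, 0 of the 5 genes remained among the nearest 5 for either gene. Over the 4 libraries left, r was 0.995 for SPCS3 with CAV1 and 0.998 for WDR37 with CAVIN1, which then ranked 26 and 14 among the 8859 genes. It was 0.894 for S100A1 with CAV1 (rank 505) and 0.890 for NEK7 with CAVIN1 (rank 532). These genes were picked by r over libraries that include these 4, so a high r over the 4 adds no support.

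Relatives of the components were read next, and the cavin, EHD and PACSIN families each had a main member in fat. CAVIN4, the muscle cavin, had 0.161 ± 0.160 rescaled TPM (SD, n = 6) and was listed at 0 in replicates 3 and 6, against at least 128 for CAVIN1, CAVIN2 and CAVIN3 in any library. In the EHD family, whose other members act in endocytic recycling, EHD1 had 57.9 ± 22.6 and EHD4 41.1 ± 5.27 rescaled TPM, and EHD3 had 0.837 ± 0.312 (SD, n = 6). EHD2 was above each of them in every library. EHD4 had 36.9 and 44.2 rescaled TPM in replicates 4 and 5 against 32.9 to 46.6 in the others, so on this scale EHD4 did not share the low values of EHD2, whereas EHD1 had 43.4 and 19.9 against 63.5 to 81.0.

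PACSIN2 was likewise the main PACSIN. PACSIN3 had 15.7 ± 2.28 and PACSIN1, the neuronal form, 1.14 ± 0.501 rescaled TPM (SD, n = 6). The flotillins, scaffolds of membrane domains that are separate from caveolae, had 122 ± 41.0 rescaled TPM for FLOT1 and 102 ± 60.7 for FLOT2 (SD, n = 6), near the level of PACSIN2. Both were lower in replicates 4 and 5, at 70.6 and 80.0 for FLOT1 and at 34.6 and 26.4 for FLOT2, against 124 to 179.9 and 108 to 182.

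**Figure D4:**
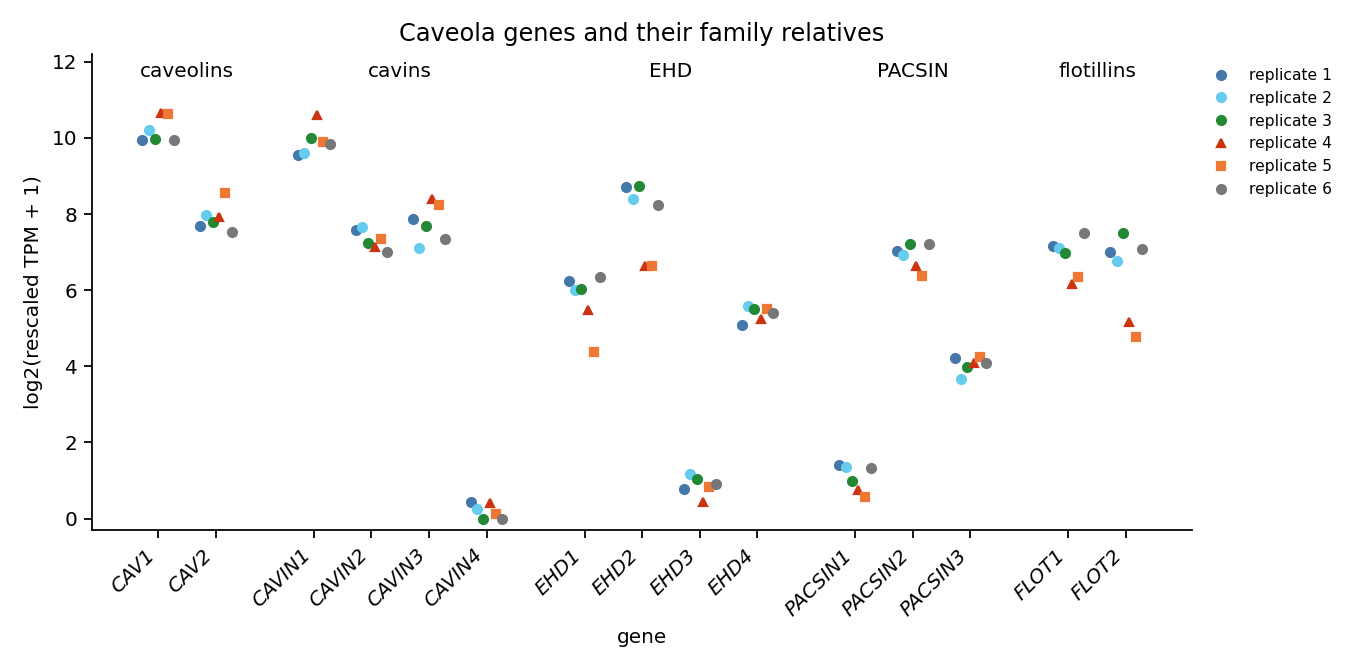
log2(rescaled TPM + 1) of caveola genes and their relatives (x axis, by family) in the 6 pig libraries, with 1 point per library. In each of the EHD and PACSIN families the caveola member lies above its relatives in every library, and CAVIN4 lies near 0.

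Of the 12 genes listed as neighbours of the caveola machinery (CAVIN4, EHD1, EHD3, EHD4, PACSIN1, PACSIN3, DNM2, FLOT1, FLOT2, ROR1, FLNA and NOSTRIN), 8 had a mean of at least 10 rescaled TPM, where 59.7% of named nuclear genes did, and 3 had at least 100. The last were both flotillins and FLNA, the actin crosslinker that tethers caveolae, at 126 ± 63.8 rescaled TPM (SD, n = 6). The list median was 49.5 rescaled TPM, and 7 of 12 genes had replicates 4 and 5 below the other 4, with 0 above. The shares were 48.6% and 12.3% of the named nuclear genes with a mean of at least 10 rescaled TPM, a filter that only 8 of the 12 pass. Among 10 signalling proteins and receptors that have been placed in caveolae, 8 had a name and 7 of these had a mean of at least 10 rescaled TPM. CD36 and AOC3 had no name and so have no value here. Of the 8 with a name, INSR, the insulin receptor, was the highest at 102 ± 32.8 rescaled TPM (SD, n = 6). It had 139, 97.0, 114 and 129.7 in replicates 1, 2, 3 and 6 and 82.5 and 50.1 in replicates 4 and 5. The median of these 8 was 37.9 rescaled TPM, and 6 of 8 were below the rest in replicates 4 and 5 with 0 above. These stand beside the same 48.6% and 12.3%, whose filter 7 of the 8 pass. Nothing particular to either list is read from these counts.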

How the data were processed

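RNA-seq values of pig backfat were used. The authors extracted total RNA, removed ribosomal RNA, prepared strand-specific libraries and ran them on the Illumina HiSeq X. They deposited gene-level TPM from Kallisto (kallisto 0.43.0 in the submitters' processing notes), 1 column per pig, with Sscrofa11.1 named as the genome. Each deposited TPM column sums to 1000000. TPM keep no depth, so precision rests on the spread between pigs, and no label says more on how the 6 samples relate.

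The components and gene lists were chosen with earlier results of these data known. Of the 25880 IDs, 14857 (57.4%) could be given a symbol, 14844 of them nuclear and 13 mitochondrially encoded. Rescaled TPM were made by dividing each library by the sum over its named nuclear genes. Levels are means ± SD over 6 pigs. With 1 group, no test was run. CV and r used genes with a mean of at least 10 rescaled TPM, and r a pseudocount of 1. A list gene was named at 100 rescaled TPM or as a direct relative, and the 5 genes of highest r with CAV1 and with CAVIN1 were named, except for 1 that is not reported here. The lists were caveola neighbours, caveola residents, adipocyte, endothelial, smooth muscle and pericyte, skeletal muscle, fibroblast and progenitor, macrophage and lymphoid. Positions, exons, GC content and the 250-base windows come from NCBI RefSeq for Sscrofa11.1, matched by symbol, and were read with pysam 0.24.0. Of the 8866 genes with a mean of at least 10 rescaled TPM, 92.6% had a GC content. Each of the 7 components had values unlike those of any other ID. In RefSeq a gene on the opposite strand overlaps CAVIN1 and another overlaps PACSIN2, and how strand was handled in quantification was not found in the methods. Scripts ran in Python 3.11.15 with pandas 2.3.3 and were checked on tables with known answers.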

Additional observations from a re-analysis of the deposited data

Results flagged for a closer look

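Of 20 sets of 6 pig values examined for the components, 2 held an extreme library by Dixon's ratio (its gap to the nearest value over the whole range). About 1 set in 20 is marked so by chance. CAV2 stood apart in replicate 5 at 374 rescaled TPM, against 184 to 249.8 in the other 5 libraries. CAVIN1 stood apart in replicate 4 at 1558 rescaled TPM, against 744 to 1019 elsewhere. Neither gene had such a library as deposited or in its ratio to CAV1. As deposited, replicates 4 and 5 were both low, so the gap of each to its nearest value was small. The lack of a mark there therefore says nothing about these libraries. The same holds wherever replicates 4 and 5 depart together. For the EHD2 to CAV1 ratio, at 0.0614 and 0.0616 in these libraries, Dixon's ratio was 0.00896.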

How the results depend on the processing

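No paired analysis was possible because pig values alone were described, with no test, and the numbers shared with rat pair no animals. The number of components detected was 7 under every alternative run. Leaving out libraries could not change it, since all 7 were detected in every library. The median percentile of the components and the ratio of CAVIN1 to CAV1 moved by less than the spread between libraries under every alternative run. The ratio was 0.782 to 0.863 over the sets of 5 libraries. The median CV of 0.273 was 0.578 as deposited and 0.486 after median-centring. It was 0.612 with mitochondrially encoded and ribosomal protein genes removed and unnamed IDs kept in the total. It was 0.149 without replicates 4 and 5, which leaves fewer samples, and 0.222 to 0.293 over the sets of 5. The median r between components changed sign with the scale, from -0.103 to 0.968 as deposited, 0.973 with those genes removed, 0.471 after median-centring and 0.0160 after quantile normalization, and to 0.0281 without replicates 4 and 5. Its lowest and highest values over the sets of 5 were -0.355 (without replicate 6) and -0.0272 (without replicate 4). The cause of these shifts was not tested. Of the mean TPM of the components, 7 of 7 moved by more than 1 SD on rescaling. Rescaling multiplies by a factor of 3.80 to 29.9 by construction. Under each other scaling, and without replicates 4 and 5, 0 of 7 moved. Median-centring and quantile normalization return values to the average size of the deposited ones, and the scale with those genes removed lay close to it. The deposited SD also includes the low replicates 4 and 5, so the 0 of 7 says little about these scalings. Ratios of components to CAV1 with libraries left out were added after the data were seen, as was the adipocyte sum without FABP4. Of these ratios, 0 of 35 moved. A mean of 6 values cannot shift by their SD when a single library or replicates 4 and 5 are left out. The leave-out results for mean TPM and for ratios to CAV1, that of CAVIN1 included, were therefore fixed in advance. Without replicates 4 and 5 the EHD2 to CAV1 ratio was 0.357 instead of 0.259, and EHD2 averaged 93.7 instead of 63.8 TPM. The unknown read depth limits low genes such as CAVIN4.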
